A study of Homo sapiens with 8 samples.

Results

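The 10 genes described here encode transcription factors of the mammary epithelial lineages: TP63, SOX10, FOXC1, SOX9, KLF5, GATA3, FOXA1, ELF5, ELF3 and EHF. They were taken by symbol from the table of 18164 genes, and all 10 were found in it. Their RNA was measured in 8 whole tumors that HCC1937, a cell line from a human breast cancer without hormone receptors or ERBB2 amplification, formed in the mammary fat pads of NCG mice, which are immunodeficient. In the NMN group, 4 tumors came from mice given the NAD+ precursor nicotinamide mononucleotide at 500 mg/kg/day, and in the Vehicle group 4 tumors came from mice given vehicle. Each mouse received 1000000 cells, and groups were formed once tumors measured 100 to 150 mm3. The sources used here give neither host age nor whether each tumor had its own mouse, and the spread behind every p-value is that among these 8 samples. All tumors share 1 cell line, so the values describe this line only.

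The mammary ducts are built of an outer basal, or myoepithelial, layer and an inner luminal layer, and each layer is kept by its own set of transcription factors. TP63, SOX10 and FOXC1 are known from basal and basal-like cells, SOX9 and KLF5 from progenitors, ELF5, ELF3 and EHF from the secretory and progenitor branch of the luminal layer, and GATA3 and FOXA1 from mature, hormone-sensing luminal cells. Triple-negative tumors often carry the basal-like pattern and may still express luminal progenitor genes.

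ELF5 and EHF are neighbours on chromosome 11, with 107 kb and 0 protein-coding genes between them in GENCODE 29. RefSeq windows of 250 bases upstream of an annotated start (GRCh38.p14) were found for 8 of the 10 factors, with 15 windows in all, and were searched on both strands for short motifs of 5 factor families. SOX9 and SOX10 had no entry. The forkhead motif, TGTTTAC or TGTTTGC, the kind of sequence that FOXA1 and FOXC1 bind, was in 4 of the 15 windows, which belong to 4 factors, and in 6.09% of all windows of this length in the table. GATA3 gave 6 of the 15 windows, and 1 of them held it. The ETS words GGAAGT and AGGAAG, by comparison, were in 38.4% of all windows, and here in windows of GATA3 and ELF5 only. The SOX words ACAATG and ACAAAG were in 21.2% of all windows, and here in windows of KLF5, GATA3, FOXA1 and EHF. Enrichment was not tested for any of the 5 families. The forkhead stretches are shown as examples. The higher-correlation pairs described below include every factor except GATA3, so they do not single out the factors with this motif. The stretches are printed 5′ to 3′ on the strand of the gene, with the motif or its reverse complement in capitals, and are limited to bases outside annotated exons. A match is a description of the letters and not a site of binding.
ELF5, chr11:34511829-34511974, minus strand, inside the gene: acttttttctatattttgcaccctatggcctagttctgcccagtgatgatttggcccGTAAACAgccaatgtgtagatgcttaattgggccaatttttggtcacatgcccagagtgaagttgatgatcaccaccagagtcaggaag
EHF, chr11:34632316-34632463, plus strand, inside the gene at a second annotated start: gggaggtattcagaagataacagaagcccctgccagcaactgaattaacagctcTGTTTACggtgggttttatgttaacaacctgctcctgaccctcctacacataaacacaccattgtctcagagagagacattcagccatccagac
FOXA1, chr14:37595349-37595499, minus strand, inside the gene: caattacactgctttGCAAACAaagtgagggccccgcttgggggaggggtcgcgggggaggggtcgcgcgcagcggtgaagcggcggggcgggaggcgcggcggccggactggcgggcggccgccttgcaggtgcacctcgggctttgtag
GATA3, chr10:8045083-8045332, plus strand, upstream of the gene: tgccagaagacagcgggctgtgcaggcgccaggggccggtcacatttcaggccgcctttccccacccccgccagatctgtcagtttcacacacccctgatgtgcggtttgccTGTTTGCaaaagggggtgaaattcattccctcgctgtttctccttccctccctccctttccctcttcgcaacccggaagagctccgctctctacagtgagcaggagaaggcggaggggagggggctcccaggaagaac

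Values are TPM, transcript levels corrected for length and scaled to a sum of 1000000 per library, which keep no record of read depth. The progesterone receptor gene PGR was listed at 0 in 7 tumors and at 0.02 TPM in Vehicle 4, and the estrogen receptor gene ESR1 lay between 3.37 and 6.00 TPM. ERBB2 lay between 77.6 and 130 TPM. Libraries differed in several ways. NMN 4 carried skeletal muscle genes at a summed 822 TPM, against 96.6 to 100 TPM in the other NMN tumors. The Vehicle tumors had 559 to 3030 TPM, with Vehicle 3 the highest, and 16 of 17 tested genes of that list had lower means in the NMN group. Vehicle 4 was the lowest of all 8 tumors in 8 of the 10 factors and the highest in TP63. Over all tested genes Vehicle 4 was the lowest tumor in 20.4% and the highest in 16.9%, while NMN 2 was the lowest in 26.1%. The 10 factors and the gene lists are given with and without Vehicle 4.

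In level, the 10 factors spanned more than 2 orders of magnitude, with KLF5 highest and SOX10 lowest. The order of the means over all 8 tumors was KLF5 at 293.9 TPM, ELF3 at 165.9, EHF at 156.7, SOX9 at 83.4, TP63 at 81.6, ELF5 at 55.4, GATA3 at 44.7, FOXA1 at 35.2, FOXC1 at 14.3 and SOX10 at 1.17. Of the 9 pairs of neighbours in this order, 7 had ranges that overlapped across the tumors, so their order was not clear of the spread between tumors. FOXA1 and FOXC1 were set apart in every tumor, as were FOXC1 and SOX10. ELF3 exceeded EHF in only 3 of 8 tumors and SOX9 exceeded TP63 in 5 of 8. KLF5, ELF3 and EHF stood at the 96.5th, 93.6th and 93.3rd percentiles of mean level among the 13358 tested genes, and SOX10 stood at the 1.48th.

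**Figure D1:**
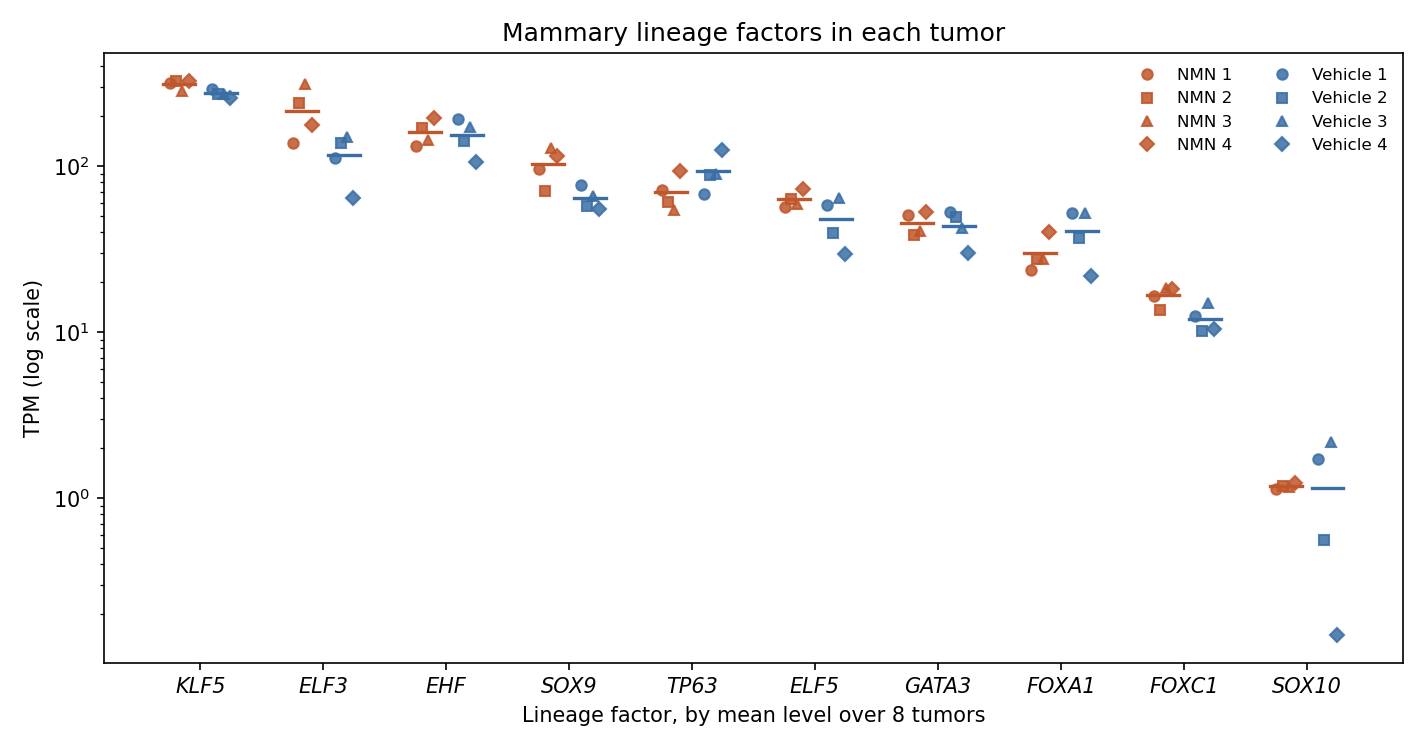
TPM of each lineage factor on a log scale, with 1 point per tumor and a line at the mean of each group of 4; NMN is left of Vehicle. KLF5 lies between 257 and 327 TPM in every tumor, whereas SOX10 runs from 0.15 to 2.17 TPM among the Vehicle tumors alone.

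The test asked whether NMN altered the level of each factor. None of the 10 factors passed limma's moderated test on log2(TPM + 1) with Benjamini-Hochberg adjustment over all 13358 tested genes, with adjusted p-values from 0.348 to 0.979. Over all genes 0, or 0%, passed, while 927, or 6.94%, had an unadjusted p under 0.05. The mean of log2(TPM + 1) was higher in NMN tumors in 8 of the 10 factors, against 51.0% of all genes, and in 5 of 10 without Vehicle 4. The 4 factors with an unadjusted p under 0.05 were SOX9, ELF3, FOXC1 and KLF5, all higher in NMN tumors, where 4.79% of all genes had such a p with a higher and 2.15% with a lower mean. Without Vehicle 4 the higher factors at that level were 3 (SOX9, ELF3 and FOXC1) and FOXA1 joined them with a lower mean. The median log2 fold change of the 10 was 0.17, or 0.04 without Vehicle 4, and 0.00 over all tested genes. In each of the 10 factors the groups overlapped, whereas 3.05% of all genes had groups that did not, 2.08% with NMN higher and 0.966% with NMN lower.

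TP63 encodes p63, a relative of p53 that maintains the basal layer (chromosome 3, 189631416 to 189897279, plus strand, GRCh38). It was at 71.8, 60.8, 54.8 and 93.9 TPM in NMN 1 to 4, against 67.6, 88.6, 90.0 and 125 TPM in Vehicle 1 to 4. NMN 2 and NMN 3 lay below every Vehicle tumor, and Vehicle 4 lay above every NMN tumor. Its log2 fold change was -0.39 ± 0.20 (SE), and the 95% interval ran from -0.82 to 0.04 (limma unadjusted p = 0.0683, adjusted p = 0.770). It was -0.24 without Vehicle 4, -0.54 without NMN 4 (unadjusted p = 0.0147) and -0.53 without Vehicle 1 (unadjusted p = 0.0160). Values per gene cannot tell the long TA from the short deltaN isoforms of p63, the second of which is the main form of basal epithelium.

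SOX10, a factor of the neural crest and of basal-like breast tumors (chromosome 22, 37970686 to 37987422, minus strand), measured 1.14, 1.19, 1.17 and 1.24 TPM over NMN 1 to 4 and 1.71, 0.56, 2.17 and 0.15 TPM over Vehicle 1 to 4. The NMN tumors were close together while the Vehicle tumors differed among themselves 14.5-fold between the highest and the lowest. The log2 fold change of 0.14 ± 0.29 (adjusted p = 0.973) turned to -0.12 without Vehicle 4, and was 0.03 without Vehicle 2 and 0.37 without Vehicle 3. Genes of Schwann cells and melanocytes, which also express SOX10, summed to 53.0 to 62.3 TPM in NMN tumors and 49.0 to 61.9 TPM in Vehicle tumors over the 12 listed genes found, most of it from ERBB3. The mean of 7 of the 12 was under 1 TPM. Among these, S100B, a Schwann cell marker, was at 0 in every Vehicle tumor and at 0.34 and 0.28 TPM in NMN 2 and NMN 3. Beside ERBB3, MBP averaged 4.52 TPM with NMN and 5.63 with Vehicle, MITF 3.79 and 3.75, PMEL 3.12 and 2.66, and PMP22 2.92 and 2.92. The part of such cells in the SOX10 values was not tested.

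FOXC1, a forkhead factor used as a marker of basal-like tumors (chromosome 6, 1609972 to 1613897, plus strand), measured 16.6, 13.5, 18.4 and 18.1 TPM over NMN 1 to 4 and 12.5, 10.2, 14.9 and 10.4 TPM over Vehicle 1 to 4. NMN 1, NMN 3 and NMN 4 lay above all Vehicle tumors, and NMN 2 lay below Vehicle 3. On the log2 scale the difference was 0.45 ± 0.16 (interval 0.10 to 0.79, adjusted p = 0.519), and 0.39 without Vehicle 4.

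SOX9, which marks mammary progenitors (chromosome 17, 72121020 to 72126420, plus strand), had the smallest p of the 10. It measured 96.4, 70.5, 128 and 116 TPM over NMN 1 to 4 and 77.2, 57.8, 66.5 and 55.1 TPM over Vehicle 1 to 4. NMN 2 was the only NMN tumor within the Vehicle range. The log2 fold change was 0.65 ± 0.18, between 0.26 and 1.03 at 95% (unadjusted p = 0.00334 and adjusted p = 0.348 by limma), or 0.58 without Vehicle 4 and 0.82 without NMN 2. KLF5, a zinc finger factor of proliferating epithelium (chromosome 13, 73054976 to 73077542, plus strand), measured 319, 327, 284 and 324 TPM over NMN 1 to 4 and 293, 273, 273 and 257 TPM over Vehicle 1 to 4. It varied least of the 10: its highest value was 1.27-fold its lowest, and its spread within groups stood at the 2.90th percentile of tested genes. KLF5 had a log2 fold change of 0.19 ± 0.09 (unadjusted p = 0.0451, adjusted p = 0.705), and 0.16 without Vehicle 4 (unadjusted p = 0.111).

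GATA3, a zinc finger factor needed for luminal identity (chromosome 10, 8045378 to 8075203, plus strand), measured 50.9, 38.7, 40.4 and 52.6 TPM over NMN 1 to 4 and 53.2, 49.1, 42.6 and 30.1 TPM over Vehicle 1 to 4. Vehicle 4 lay below and Vehicle 1 just above the NMN range, and the rest overlapped. GATA3 had a log2 fold change of 0.08 ± 0.17 (interval -0.30 to 0.46, adjusted p = 0.979), and from -0.09 (without Vehicle 4) to 0.18 (without Vehicle 1) with 1 tumor left out. FOXA1, the forkhead factor that opens chromatin for the estrogen receptor (chromosome 14, 37589984 to 37596059, minus strand), measured 23.8, 27.6, 27.5 and 40.2 TPM over NMN 1 to 4 and 51.9, 37.0, 51.9 and 21.8 TPM over Vehicle 1 to 4. NMN 1, NMN 2 and NMN 3 lay below Vehicle 1, Vehicle 2 and Vehicle 3, and above Vehicle 4. FOXA1 had a log2 fold change of -0.39 ± 0.25 (unadjusted p = 0.156, adjusted p = 0.871 by limma), and without Vehicle 4 it was -0.65 ± 0.18 (unadjusted p = 0.00392, adjusted p = 0.338). It was -0.24 without Vehicle 1 (adjusted p = 0.841) and -0.24 without Vehicle 3 (adjusted p = 0.960).

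ELF5, ELF3 and EHF are epithelium-specific factors of the ETS family. ELF5, which directs the alveolar and milk-secreting fate (chromosome 11, 34478793 to 34513805, minus strand), measured 57.1, 63.6, 58.8 and 72.5 TPM over NMN 1 to 4 and 58.0, 39.6, 64.2 and 29.5 TPM over Vehicle 1 to 4. Vehicle 2 and Vehicle 4 lay below every NMN tumor, and NMN 4 was highest. ELF5 had a log2 fold change of 0.45 ± 0.21 (adjusted p = 0.733), and 0.24 without Vehicle 4. ELF3, an epithelial and inflammation-responsive member (chromosome 1, 202007945 to 202017188, plus strand), measured 138, 238, 310.4 and 177 TPM over NMN 1 to 4 and 113, 137, 150.0 and 64.0 TPM over Vehicle 1 to 4. Its highest value was 4.85-fold its lowest, and NMN 1 alone of the NMN tumors lay within the Vehicle range. ELF3 had a log2 fold change of 0.90 ± 0.28, between 0.28 and 1.51 at 95% (unadjusted p = 0.00807, adjusted p = 0.426 by limma), and 0.64 without Vehicle 4. EHF (chromosome 11, 34621093 to 34661057, plus strand) measured 131, 170.3, 144 and 195 TPM over NMN 1 to 4 and 193, 141, 173 and 106 TPM over Vehicle 1 to 4. NMN 4 was the highest tumor and Vehicle 4 the lowest, and the groups overlapped. EHF had a log2 fold change of 0.08 ± 0.18 (adjusted p = 0.978), -0.08 without Vehicle 4, -0.02 without NMN 4 and 0.21 without Vehicle 1.

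**Figure D2:**
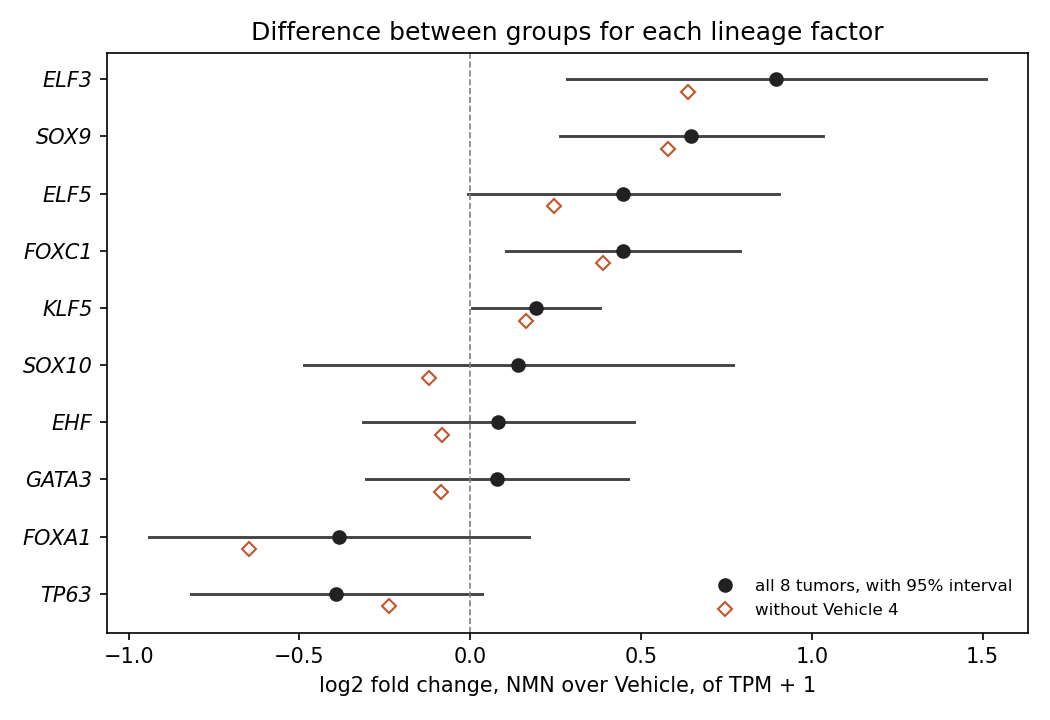
log2 fold change of TPM + 1, NMN over Vehicle, for each factor: filled points with 95% intervals are from all 8 tumors and open diamonds leave out Vehicle 4. The intervals of ELF3, SOX9, FOXC1 and KLF5 lie above 0 before adjustment, and the diamonds of SOX10, EHF and GATA3 lie on the other side of 0 from their points.

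By the exact two-sided permutation test over the 70 splits of the tumors, SOX9, FOXC1, KLF5 and ELF3 each had p = 0.0571, where the smallest p that 4 against 4 allows is 0.0286. In each of these 4 factors 3 NMN tumors exceeded the highest Vehicle tumor, and the exception was NMN 2 in SOX9 and FOXC1, NMN 3 in KLF5 and NMN 1 in ELF3. NMN 4, whose muscle genes were at the level of the Vehicle tumors, exceeded the Vehicle range in 6 factors, lay inside it in 4 and was below it in 0.

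**Figure D3:**
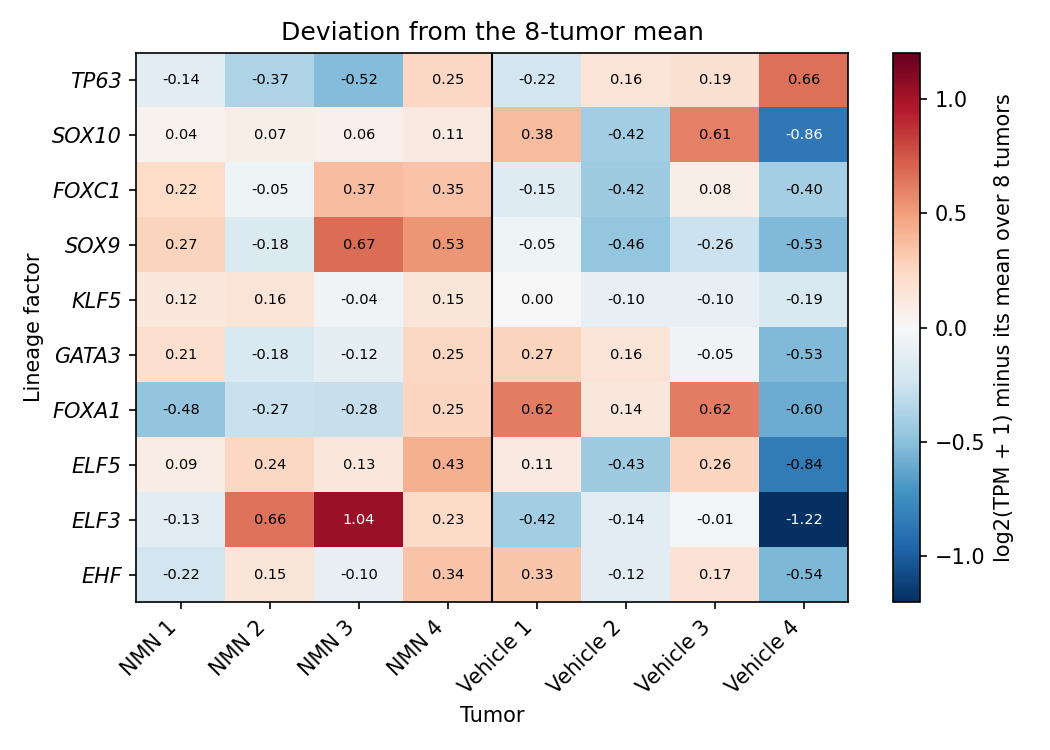
Deviation of log2(TPM + 1) from its mean over the 8 tumors, with factors in rows and tumors in columns, NMN left of Vehicle. The Vehicle 4 column holds -1.22 for ELF3, -0.86 for SOX10 and -0.84 for ELF5, beside 0.66 for TP63.

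Across the 8 tumors, 34 of the 45 pairs of factors had a positive and 11 a negative Pearson correlation. Where 2 tumors are left out below, they are those farthest from the median of the first-named factor. This narrows the range of that factor and takes no account of the other. By exact permutation 0 of the 45 passed after Benjamini-Hochberg adjustment (smallest adjusted p = 0.117 by Pearson and 0.138 by Spearman), and 8 had an unadjusted p under 0.05. FOXC1 and SOX9 had the highest, with r = 0.92 (exact permutation p = 0.00260, adjusted p = 0.117) and rho = 0.88 (exact permutation p = 0.00724, adjusted p = 0.138), and r = 0.86 without Vehicle 2 and Vehicle 4. The chromosome 11 neighbours ELF5 and EHF had r = 0.83 (exact permutation p = 0.00928, adjusted p = 0.134) and rho = 0.83 (exact permutation p = 0.0154, adjusted p = 0.138), and r = 0.61 without Vehicle 2 and Vehicle 4. FOXA1 and EHF had r = 0.79 (exact permutation p = 0.0209, adjusted p = 0.134) and rho = 0.83 (exact permutation p = 0.0154, adjusted p = 0.138), and r = 0.75 without Vehicle 1 and Vehicle 3. The only negative pair at that level was TP63 and ELF3, with r = -0.79 (exact permutation p = 0.0206, adjusted p = 0.134) and rho = -0.55 (exact permutation p = 0.171, adjusted p = 0.492). It was r = -0.21 without NMN 3 and Vehicle 4, so the size of this r depends on those 2 tumors. FOXC1 and ELF5, with r = 0.79 (exact permutation p = 0.0149, adjusted p = 0.134) and rho = 0.64 (exact permutation p = 0.0962, adjusted p = 0.433), likewise came to r = 0.27 without Vehicle 2 and Vehicle 4. SOX10 and ELF5 had r = 0.88 (exact permutation p = 0.00689, adjusted p = 0.134) and rho = 0.81 (exact permutation p = 0.0218, adjusted p = 0.163), and r = 0.74 without Vehicle 3 and Vehicle 4. The other pairs of the 8 were SOX10 and EHF (r = 0.81, or 0.62 without Vehicle 3 and Vehicle 4) and KLF5 and ELF5 (r = 0.73, or 0.63 without NMN 2 and NMN 4). For KLF5 and ELF5 this kept Vehicle 4, the lowest tumor in ELF5. With the mean of each group subtracted, r was 0.80 for FOXC1 and SOX9, 0.91 for ELF5 and EHF, 0.96 for FOXA1 and EHF, -0.68 for TP63 and ELF3 and 0.97 for SOX10 and ELF5.

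Ratios of 2 factors within a tumor do not depend on scaling between libraries. They were chosen after the values were seen and have no test, and of 11 computed the groups overlapped in 7 and were apart in 4: ELF3, SOX9 and FOXC1 to TP63, and ELF5 to EHF. ELF5, FOXA1 and GATA3 to TP63 were among those that overlapped. The ratio of ELF3 to TP63 was 1.92, 3.92, 5.67 and 1.89 in NMN tumors, against 1.67, 1.55, 1.67 and 0.512 in Vehicle tumors. Every NMN tumor lay above every Vehicle tumor, although NMN 4 and NMN 1 were close to the Vehicle values. For SOX9 to TP63 the ratio was 1.34, 1.16, 2.33 and 1.23 in NMN tumors, against 1.14, 0.652, 0.739 and 0.440 in Vehicle tumors, where NMN 2 and Vehicle 1 nearly met. FOXC1 to TP63 gave 0.231, 0.223, 0.336 and 0.193 in NMN tumors, against 0.185, 0.115, 0.165 and 0.0832 in Vehicle tumors, where NMN 4 and Vehicle 1 nearly met. ELF5 to EHF, the neighbours on chromosome 11, gave 0.434, 0.374, 0.409 and 0.372 in NMN tumors, against 0.300, 0.281, 0.371 and 0.280 in Vehicle tumors. Here NMN 4 and Vehicle 3 were almost equal. How often ratios of other gene pairs were apart was not computed.

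Among 5235 genes with a mean of at least 5 TPM and an SD of at least 0.2 on the log2 scale, the gene most like each factor over the 8 tumors was sought by Pearson r, as a description with no p. These are the highest of many candidates over few tumors, and the values are high by that choice. FOXA1 was followed most closely by CYP4B1, a cytochrome P450 gene, at r = 0.99, and by SPDEF, an ETS factor of luminal cells, at r = 0.97. ELF3 was followed by KRT15, a keratin gene, at r = 0.95, and by the autophagy gene GABARAPL1 at r = 0.95. TP63 was followed by TTC22 and SGPP2, both at r = 0.98, and EHF by GADD45G and FAM210B at r = 0.98 for each. For SOX9 the most alike were SLC4A11 and C11orf49, both at r = 0.98, for FOXC1 NDUFC2-KCTD14 at r = 0.98 and PRXL2B at r = 0.97, and for ELF5 SMIM19 and HIBADH, both at r = 0.98. SOX10 was followed by ARFGEF3 and TBC1D9 at r = 0.97 and 0.96, GATA3 by EIF2B5 and GOLPH3L at r = 0.96 for each, and KLF5 by COX20 and AZI2 at r = 0.92 and 0.91.

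Genes that mark or follow these lineages were read from the same fit, in lists chosen with earlier results of these data known. In none of the lists did a gene pass after adjustment over all genes. For comparison with each list, 4.79% of all tested genes had an unadjusted p under 0.05 with a higher mean and 2.15% with a lower mean. The groups did not overlap in 3.05% of all tested genes. Of 26 tested basal markers, NMN means were higher in 5 and lower in 21 (median log2 fold change -0.18), and without Vehicle 4 the numbers were 14 and 12 with a median of 0.04, while the median was -0.34 without Vehicle 1. At an unadjusted p under 0.05 stood 0 with the higher mean and 3 with the lower, or 1 without Vehicle 4, NMN 1 or NMN 2, 2 without NMN 3 or Vehicle 3, and 6 without NMN 4. The 3 were NGFR, a neurotrophin receptor gene, with a log2 fold change of -0.69 ± 0.22, the oxytocin receptor gene OXTR at -0.47 ± 0.19, and the smooth muscle actin gene ACTA2 at -0.35 ± 0.16 (adjusted p = 0.441, 0.641 and 0.712). ACTA2 was at -0.21 without NMN 1. KRT5, the defining basal keratin gene, measured 3414, 2817, 3490 and 3485 TPM over NMN 1 to 4 and 3276, 4648, 3280 and 6488 TPM over Vehicle 1 to 4. Vehicle 4 was the highest.

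Genes known as targets of p63 showed the same dependence on Vehicle 4. Of 19 tested, NMN means were higher in 3 and lower in 16 (median -0.16), and without Vehicle 4 the numbers were 11 and 8 with a median of 0.02. Without Vehicle 1 the median was -0.32, and 4 genes with a lower mean had an unadjusted p under 0.05, against 0 with all tumors. In 15 of the 19, or 78.9%, Vehicle 4 was the highest of all 8 tumors, as it was for TP63 itself. This list shares 6 genes with the basal markers, KRT5 among them. The protocadherin gene FAT2 had a log2 fold change of -0.48 ± 0.23, the hemidesmosome gene DST of -0.39 ± 0.21 and TRIM29 of -0.16 ± 0.10 (adjusted p = 0.755, 0.812 and 0.860). Without Vehicle 4, FAT2 was at -0.27 and DST at -0.16, and FAT2 was at -0.31 without NMN 2. FAT2 was at 47.5 TPM in Vehicle 4 and between 25.6 and 25.9 TPM in the other Vehicle tumors.

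Genes associated with SOX10 or FOXC1 in basal-like tumors had higher NMN means in 17 of 18 tested (median log2 fold change 0.61). Of the 18, 11 had an unadjusted p under 0.05, all higher, against 4.79% of all tested genes with such a p and a higher mean. In 5 the groups did not overlap, against 3.05% of all tested genes. After adjustment 0 passed, and without NMN 4, 1 passed, VGLL1. Because the list was chosen with earlier results known, these counts are no test of it. The 11 became 7 without Vehicle 2 and 9 without Vehicle 4, where means were still higher in 17 of 18 with a median of 0.58. VGLL1, a partner of TEAD factors, had a log2 fold change of 0.71 ± 0.12 (adjusted p = 0.221), TTYH1 of 1.05 ± 0.26 (adjusted p = 0.277), SOX8, a close relative of SOX10, of 0.79 ± 0.21 (adjusted p = 0.341), and GABRP, a GABA receptor subunit gene, of 0.96 ± 0.30 (adjusted p = 0.413). CRYAB, a small heat shock protein gene with the highest level of the list, measured 1143, 909, 1762 and 2007 TPM over NMN 1 to 4 and 860, 773, 1275 and 845 TPM over Vehicle 1 to 4. NMN 3 and NMN 4 were highest. In SOX10 itself the Vehicle tumors lay on both sides of the NMN tumors.

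Luminal progenitor and secretory genes had higher means in NMN tumors in 15 of 17 tested, with a median of 0.35, and likewise in 15 of 17 without Vehicle 4, with a median of 0.41. At an unadjusted p under 0.05 stood 7, all higher, or from 5 to 8 with 1 tumor left out, against 4.79% of all tested genes with all tumors. CLDN4, a tight junction gene, had a log2 fold change of 0.52 ± 0.14, the lactoferrin gene LTF of 0.83 ± 0.23, the phosphate transporter gene SLC34A2 of 0.93 ± 0.30 and the receptor gene KIT of 0.84 ± 0.26 (adjusted p from 0.341 to 0.451). SLC34A2 was at 0.60 without NMN 3. KIT measured 18.0, 19.1, 23.3 and 17.1 TPM over NMN 1 to 4 and 15.7, 7.63, 15.2 and 6.04 TPM over Vehicle 1 to 4, and every NMN tumor exceeded every Vehicle tumor. KIT and PROM1 are also in the list of genes associated with SOX10 or FOXC1. SLPI, the protease inhibitor gene with the highest level of the list, averaged 3880 ± 374 TPM with NMN and 3850 ± 435 TPM with Vehicle (SD, n = 4 each).

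Mature luminal genes split. NMN means were higher in 11 of 21 tested and lower in 10, with a median of 0.01, which was 0.27 without NMN 1 and -0.08 without Vehicle 4, where 2 higher and 3 lower means had an unadjusted p under 0.05. With all tumors the 5 at that level were all higher, or 3 without NMN 1 and 2 without NMN 3, and 4 of them are genes of simple epithelium: KRT8, which averaged 834 ± 88.8 TPM with NMN and 415 ± 145 TPM with Vehicle (SD, n = 4 each), a log2 fold change of 1.07 ± 0.21, with KRT18 at 0.33 ± 0.14, KRT7 at 0.37 ± 0.16 and EPCAM at 0.43 ± 0.16 (adjusted p from 0.221 to 0.709). Without Vehicle 4, KRT18 was at 0.20 and KRT7 at 0.23. The fifth, TBX3, a T-box factor, had a log2 fold change of 1.12 ± 0.48, or 0.66 without Vehicle 4. SPDEF, which followed FOXA1, had one of -0.37 ± 0.24, with -0.63 without Vehicle 4 and -0.23 without Vehicle 3.

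**Figure D4:**
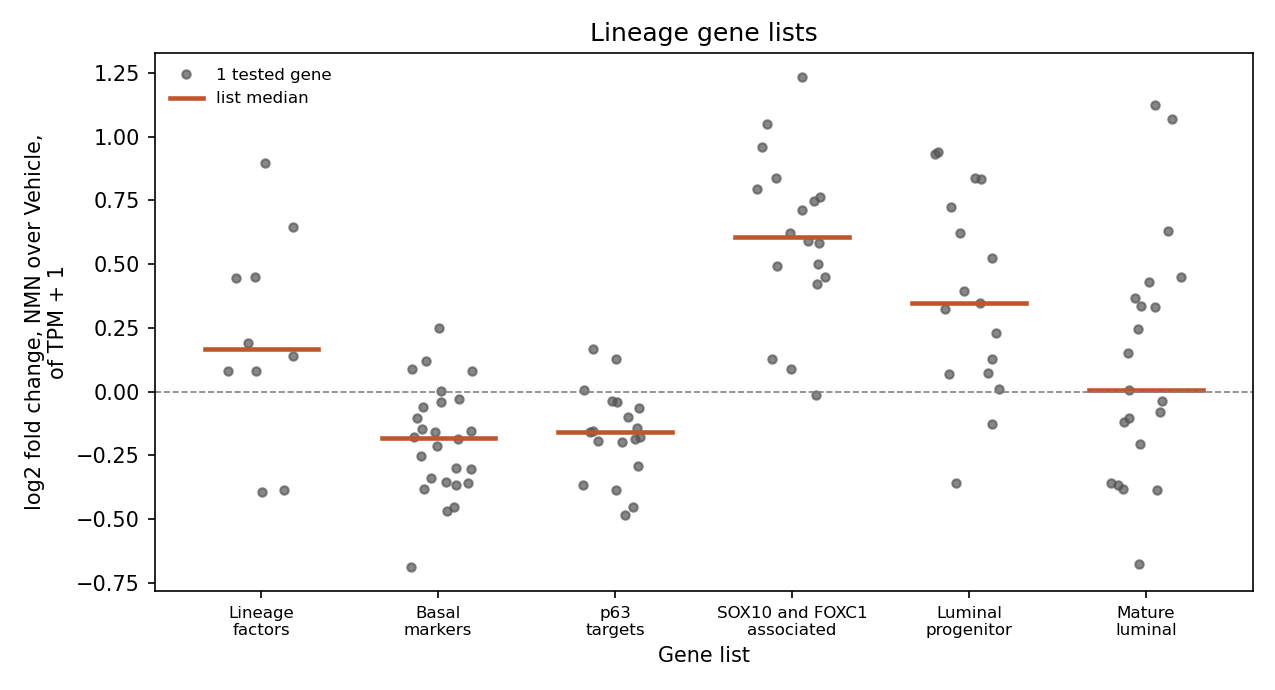
log2 fold change of TPM + 1, NMN over Vehicle, for each tested gene of 6 lists, with the median of each list as a line. The medians lie at -0.18 for basal markers and -0.16 for p63 targets, 0.61 for genes associated with SOX10 and FOXC1, and 0.35 for luminal progenitor genes.

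Genes used as markers of other cells differed between the tumors too, and their part in the results was not tested. Whether their RNA, that of the keratinized epidermis genes included, came from such cells or from the HCC1937 cells was not tested either. In bulk samples, fewer cells of a type and less RNA per cell cannot be told apart. Keratinized epidermis, which expresses TP63, KLF5 and GATA3 as well, was represented by 11 genes that summed to 12600 to 22000 TPM in NMN tumors and 12200 to 17400 TPM in Vehicle tumors. Of the 11, NMN means were higher in 9 and lower in 2 (median log2 fold change 0.10), or 3 and 8 without NMN 1. By limma 3, all higher, had an unadjusted p under 0.05, against 4.79% of all tested genes, and 0 passed after adjustment. The differentiation gene KRTDAP, at a log2 fold change of 0.56, measured 8128, 10301, 7699 and 4361 TPM over NMN 1 to 4 and 4811, 5250, 4124 and 5669 TPM over Vehicle 1 to 4. KRT1 was at 0.10, DSG1 at -0.12 and SPRR2A at -0.28. Fibroblast genes, of which 6 of 12 were tested and all 6 had lower NMN means, summed to 144 to 263 TPM in NMN tumors and 214 to 332 TPM in Vehicle tumors. Adipocyte genes, 4 of 8 tested, summed to 40.8 to 254 TPM with NMN and 34.2 to 133 TPM with Vehicle, and myeloid genes, 7 of 8 tested, to 53.8 to 92.9 TPM with NMN and 56.7 to 79.0 TPM with Vehicle. Endothelial genes, 3 of 10 tested, summed to 10.4 to 12.4 TPM with NMN and 6.97 to 12.4 TPM with Vehicle. Lymphoid genes were near 0, at 2.54 to 3.65 TPM with NMN and 1.64 to 4.88 TPM with Vehicle, and 0 of 8 passed the filter. The sources used here do not say whether host reads were separated, and mouse RNA that aligned to the human build may have entered these sums.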

How the data were processed

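Per the file headers, the authors deposited TPM per gene for the 8 tumors in 1 table. Of tools, RSEM 1.2.8, HISAT2 2.1.0 and Bowtie2 2.2.5 stand in the submitters' processing notes without their roles, beside the human build GRCh38.p13. Read depth cannot be had from TPM and is unknown. Between 16451 and 16662 genes were above 0 per library.

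Groups come from the sample titles. Genes with at least 1 TPM in at least 4 of 8 libraries, 13358 of 18164, were fitted with limma 3.58.1 in R 4.3.3 on log2(TPM + 1), with a mean-variance trend and group as the only term, two-sided, adjusted by Benjamini-Hochberg at 0.05. All 10 factors passed the filter. Fold changes are NMN over Vehicle on that scale, which understates the change of low genes such as SOX10. On simulated data for this comparison, with 13358 genes of which 200 were changed, the model recovered 40.7% of genes changed 1.5-fold, 83.1% at 2-fold and 98.8% at 4-fold, and 4.74% of its calls were false. Changed genes were drawn only from those with a mean level above 5 TPM on the log2 scale. Each gene was drawn independently from a normal distribution. The rates therefore do not apply to SOX10, average over genes of all spreads, and include no effect shared across a library.

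The members, lists and tests were chosen with earlier results of these data known. All factors were named, with up to 4 genes of the smallest p and the highest-level gene of each list. Positions are from GENCODE 29 on GRCh38, and promoter windows from RefSeq on GRCh38.p14. The fit was repeated after quantile normalization, after median-of-ratios scaling, with a pseudocount of 0.1 or 5, with the filter raised to 5 TPM or dropped, with library weights, without the variance trend, with replicate number as a block, and leaving out each tumor.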

Additional observations from a re-analysis of the deposited data

How the results depend on the processing

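None of the 10 factors passed by limma under the settings tried. The number of genes passing was 0 with all 8 tumors, 54 with library weights, 2 with the replicate block and from 0 to 54 with 1 tumor left out, highest without NMN 4. Factors at an unadjusted p under 0.05 with a higher mean numbered 4, against 2 with library weights and 3 to 5 with 1 tumor left out; those with a lower mean numbered 0, against 1 with library weights, 1 with the replicate block and 0 to 1 with 1 tumor left out. Factors with the higher mean ran from 5 (without Vehicle 4) to 8. Directions turned for SOX10 (log2 fold change -0.029 with library weights, and from -0.121 to 0.367 with 1 tumor left out), EHF (-0.14 with library weights, and from -0.083 to 0.205, with -0.017 without NMN 4) and GATA3 (from -0.086 to 0.181); the cause was not tested. Over all genes, those at an unadjusted p under 0.05 with a higher and a lower mean were 640 and 287, 778 and 437 with no filter, 684 and 442 with median-of-ratios scaling, 640 and 514 after quantile normalization, 858 and 634 with library weights, and 379 and 189 without NMN 3. The count with a lower mean was 189 without NMN 1 and 652 without NMN 4. Pairs of factors passing numbered 0 to 1 with 1 tumor left out, the 1 being SOX10 and FOXA1 without Vehicle 2.

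Same-numbered tumors did not deviate together (r from -0.12 to 0.03 over 4 pairs, and 0 of 4 NMN tumors correlated best with its own number). Only 4 pairs of deviations from group means enter this check, which cannot exclude shared handling. Whether the numbers pair the samples is therefore not known. VGLL1 passed with library weights (adjusted p = 0.0460) and without NMN 4 (adjusted p = 0.0206), and KRT8 with library weights (adjusted p = 0.0466). Under the other settings neither passed.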

Other observations

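Relatives of the factors were measured beside them. For the lists of this section, 4.79% of all tested genes had an unadjusted p under 0.05 with a higher mean and 2.15% with a lower mean. The groups did not overlap in 3.05% of all tested genes. Of 28 tested paralogues, NMN means were higher in 17 and lower in 11 (median log2 fold change 0.14, or from 0.05 without Vehicle 2 to 0.12 with 1 tumor left out), and 0 passed after adjustment over all genes by limma, while 4 with a higher and 1 with a lower mean had an unadjusted p under 0.05. SOX8, given above with the genes associated with SOX10 or FOXC1, is among the 4. The 4 became 2 without NMN 1 or NMN 3, and the 1 ran from 0 to 3 (without NMN 4) with 1 tumor left out. KLF6, a relative of KLF5, measured 35.8, 36.0, 37.2 and 40.1 TPM over NMN 1 to 4 and 26.2, 34.5, 30.9 and 18.0 TPM over Vehicle 1 to 4, with no overlap (log2 fold change 0.47 ± 0.17, adjusted p = 0.562, and 0.29 without Vehicle 4). FOXC2, a relative of FOXC1, had a log2 fold change of 0.44 ± 0.20 (adjusted p = 0.712). FOXA3, a relative of FOXA1, measured 2.17, 2.35, 3.57 and 4.64 TPM over NMN 1 to 4 and 9.70, 5.44, 7.94 and 2.38 TPM over Vehicle 1 to 4, with Vehicle 4 among the NMN values and the other Vehicle tumors above them. Its log2 fold change was -0.73 ± 0.33 (adjusted p = 0.712), and -1.06 without Vehicle 4.

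Of 40 other epithelial and mammary transcription factors tested, NMN means were higher in 27 and lower in 13 (median 0.11), and 0 passed by limma, with 6 higher and 1 lower at an unadjusted p under 0.05. The list shares 6 genes with those associated with SOX10 or FOXC1 and 4 with the mature luminal genes. VGLL1, EN1 and TBX3 are among the 6 higher and were counted there too. With 1 tumor left out the median ran from 0.07 (without NMN 4, where VGLL1 passed, the same gene as above) to 0.16. The 6 became 4 without NMN 1, NMN 3 or Vehicle 4, and the 1 became 2 without NMN 4 or Vehicle 4. LMO4, a LIM-only cofactor of breast epithelium, measured 44.0, 38.0, 57.2 and 43.5 TPM over NMN 1 to 4 and 33.0, 28.5, 31.7 and 25.8 TPM over Vehicle 1 to 4, with no overlap (log2 fold change 0.59 ± 0.14, adjusted p = 0.268 by limma). RUNX3 had a log2 fold change of 0.90 ± 0.29 and CEBPB, with the highest level of the list, of 0.44 ± 0.20 (adjusted p = 0.449 and 0.725). CEBPB was at 0.29 without Vehicle 3. ZEB2, a repressor of epithelial genes, measured 1.27, 1.11, 0.80 and 1.70 TPM over NMN 1 to 4 and 1.85, 1.97, 2.31 and 3.26 TPM over Vehicle 1 to 4, also with no overlap (log2 fold change -0.59 ± 0.19, adjusted p = 0.456).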
